A study of Homo sapiens with 21 samples.

Results

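The cyclin D-CDK4/6-RB module of the cell cycle was examined on 21 Affymetrix PrimeView arrays of SH-SY5Y, a line of human neuroblastoma cells. Its 10 genes were chosen by name: the kinases CDK4 and CDK6, the D cyclins CCND1, CCND2 and CCND3, the kinase inhibitors CDKN2A and CDKN2C, the RB1 gene and the E cyclins CCNE1 and CCNE2. Probe sets annotated to exactly 1 of these symbols were taken, and each gene was read on its brightest probe set, by the mean of the 21 arrays. This gave 9 genes with 27 probe sets, of 18132 genes with 44988 probe sets in the whole table. CDKN2C had no such probe set in the annotation used and was not analysed here.

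The cells were wild type (WT) or APP-V717F mutated (APP), the latter an amino acid change of the amyloid precursor that runs in families with Alzheimer's disease. Retinoic acid (10 µM) and BDNF (50 ng/mL), which turn these dividing cells towards a neuronal state, had first been given to all cells over 3 to 4 days. They then received 0.1% DMSO alone or a compound in DMSO for 72 h. The 7 groups of 3 arrays are named by genotype and agent: WT_DMSO, WT_AG494, WT_NOSCA and WT_PALBO, then APP_DMSO, APP_AG494 and APP_NOSCA. AG494 is taken here, by its name, as an inhibitor of the EGF receptor kinase, and other actions it may have were not analysed here. PALBO is taken here as palbociclib, an inhibitor of CDK4 and CDK6; the labels give the short form only, NOSCA is written as in the labels, and no dose is given. APP cells with PALBO were not analysed here. The mutated cells are 1 line, so that the genotype and other differences between the lines cannot be told apart.

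In this module mitogens raise D cyclins, which bind and activate CDK4 and CDK6. The kinases phosphorylate RB, which then releases E2F transcription factors, and these switch on the E cyclins and the genes of DNA replication. The INK4 inhibitors bind CDK4 and CDK6 and keep RB active. CDKN2A encodes 2 unrelated proteins from different first exons, the INK4 inhibitor p16 and ARF, which protects p53. Neuroblastoma cells of the noradrenergic type commonly hold much cyclin D1.

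Values are log2 intensities normalised by the authors, so that a difference of 1 is a doubling of signal. The medians of the arrays lay between 7.88 and 8.03. Of 10 markers of noradrenergic neuroblastoma cells 8 were measured, and all were above 6.62, the upper bound of the dimmest 33.3% of genes, on every array. Fibroblast markers were above it in 5 of 5 cases as well, with list means of 9.39 to 10.1 over the arrays. Of 3 measured glial markers 2 were above it on every array, with list means of 7.8 to 8.23 on WT and 7.26 to 7.64 on APP arrays. Of 5 immune markers 3 were below that bound on every array, among them the leucocyte gene PTPRC at 4.79 to 5.18. CD68 was above it on all 21, at 7.76 to 8.67, and CD79A on 19. Single markers of each of these lists, the noradrenergic one included, differed between the groups. Some are given beside the results, and their part in the differences was not tested. Fewer cells that hold a transcript and less transcript per cell cannot be told apart in such bulk RNA. A gene is called changed at an adjusted p under 0.05 over all genes in limma's moderated test, and each group was fitted with all 21 arrays.

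The promoters of CDKN2A and CCNE1, 2 of the members with called differences, are shown for orientation; that of CCNE2 is not shown. They are given as the 250 bases before the annotated start (RefSeq table, GRCh38.p14, strand of the gene). CDKN2A lies on chromosome 9 at 21967752 to 21995324, minus strand, and has a start for each of its first exons. The upstream one, used by ARF, is preceded by chr9:21995325-21995574, and the p16 one by chr9:21974858-21975107. CCNE1 lies on chromosome 19 at 29811991 to 29824312, plus strand, preceded by chr19:29811741-29811990. Capitals mark GC boxes, GGGCGG on either strand, the word read by SP1.
CDKN2A, ARF start: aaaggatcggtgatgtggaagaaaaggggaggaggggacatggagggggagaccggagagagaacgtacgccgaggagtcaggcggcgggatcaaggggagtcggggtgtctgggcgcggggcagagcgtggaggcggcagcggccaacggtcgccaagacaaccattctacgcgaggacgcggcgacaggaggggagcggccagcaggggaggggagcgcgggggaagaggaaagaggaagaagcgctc
CDKN2A, p16 start: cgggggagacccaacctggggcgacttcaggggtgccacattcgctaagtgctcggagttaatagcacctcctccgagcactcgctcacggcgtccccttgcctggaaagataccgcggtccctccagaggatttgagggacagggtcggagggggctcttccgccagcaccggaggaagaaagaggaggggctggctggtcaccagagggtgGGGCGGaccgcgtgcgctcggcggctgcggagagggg
CCNE1: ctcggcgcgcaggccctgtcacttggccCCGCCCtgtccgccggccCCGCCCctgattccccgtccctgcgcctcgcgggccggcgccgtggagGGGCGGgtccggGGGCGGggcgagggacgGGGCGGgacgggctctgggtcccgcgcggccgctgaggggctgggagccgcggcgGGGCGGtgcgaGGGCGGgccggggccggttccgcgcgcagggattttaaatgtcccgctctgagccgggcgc
The CCNE1 window held 7 GC boxes and was 81.2% G and C, with 39 CpG pairs. The p16 window held 1, with its first base 37 bases before the start, and 20 CpG pairs, and the ARF window none and 24 CpG pairs. At least 1 GC box stood in 42.6% of 35116 windows of the same length in that table, whose median was 58.0% G and C with 11 CpG pairs. None of the 3 windows held TTTCCCGC, TTTCGCGC, TTTGCCGC or TTTGGCGC on either strand, E2F words that 2.8% of all windows held.

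On the brightest probe set of each gene, most of the module varied little at the level of RNA. Over the 7 groups the means of CDK4 spanned 0.15, of CCND3 0.19, of CDK6 and CCND2 0.2 and of RB1 0.21, against a median span of 0.25 over all genes. CCND1 and CCNE1 spanned 0.37 each and CCNE2 0.76. CDKN2A spanned 3.07, a larger span than in 99.8% of genes. These spans depend on the probe set. The group means ran from 10.73 to 11.9 on the dimmest CCND1 set and from 7.51 to 8.26 on the second CDKN2A set.

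**Figure D1:**
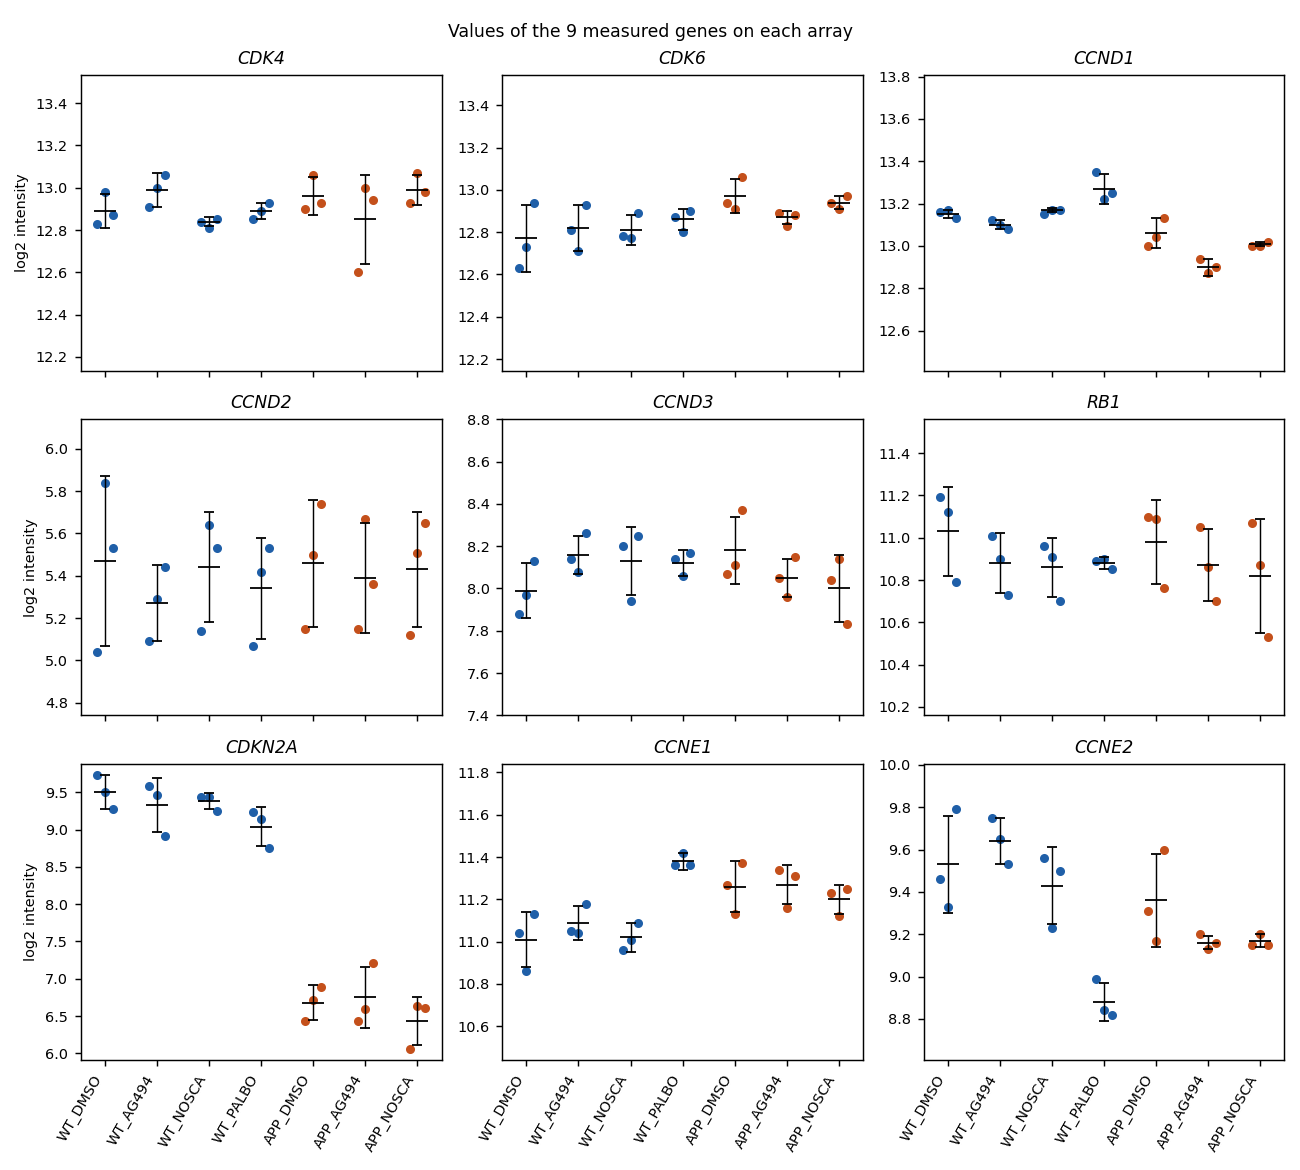
Log2 intensity of the 9 measured genes on each of the 21 arrays, in panels whose vertical axes differ in range. Points are arrays (blue WT, orange APP), horizontal marks and bars the mean and SD of 3 arrays. CDKN2A falls from 8.75 or more on all WT arrays to 7.21 or less on all APP arrays, and the mean of CCNE2 is lowest and that of CCNE1 highest in WT_PALBO.

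The kinases themselves were bright on every array and did not pass in any contrast of the fit without a block. CDK4 lay between 12.6 and 13.07 on all arrays, and its 4 probe sets gave no call in any of the 12 contrasts. Under PALBO its value was 12.85, 12.89 and 12.93, against 12.83, 12.98 and 12.87 in WT_DMSO, so that the arrays overlapped. The difference had a 95% interval from -0.18 to 0.18 (adjusted p = 0.99 in limma). Its lowest array was the first of APP_AG494, at 12.6, while the other two of that group were at 13.0 and 12.94.

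CDK6, the second kinase, lay between 12.63 and 13.06. It was at 12.87, 12.8 and 12.9 under PALBO and at 12.63, 12.73 and 12.94 in WT_DMSO. These overlapped, and the interval of the difference ran from -0.07 to 0.26 (adjusted p = 0.64 in limma). In APP_DMSO it was at 12.94, 12.91 and 13.06, and the log2 fold change against WT_DMSO was 0.2 (SE 0.08, adjusted p = 0.13 in limma). By title number there are 3 runs of 10, which pair the arrays across groups. With the run as a replicate block CDK6 passed in this comparison (adjusted p = 0.019 in limma), where 17.4% of all genes did. Its 4 probe sets had log2 fold changes of 0.19 to 0.35 there, and none was called without the block.

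Cyclin D1, a partner of both kinases, was slightly lower in APP than in WT cells under AG494. CCND1 was at 13.16, 13.17 and 13.13 in WT_DMSO and at 13.0, 13.04 and 13.13 in APP_DMSO, where the groups touched at 13.13. Under AG494 the arrays were at 13.12, 13.1 and 13.08 in WT and at 12.94, 12.87 and 12.9 in APP cells. Under NOSCA they were at 13.15, 13.17 and 13.17 in WT and at 13.0, 13.0 and 13.02 in APP cells, so that with either compound all APP arrays were below all WT arrays. The log2 fold change was -0.1 (SE 0.06, adjusted p = 0.38 in limma) under DMSO and -0.2 (SE 0.06, adjusted p = 0.03 in limma) under AG494, where the call was lost without any WT_AG494 array or APP_AG494 replicate 2 or 3 (adjusted p up to 0.12). It was -0.16 under NOSCA (SE 0.06, adjusted p = 0.11, or 0.043 with the replicate block, where 14.8% of all genes were called). Whether the genotype difference depended on AG494 was tested as an interaction, which gave -0.1 (95% interval -0.27 to 0.06, adjusted p = 0.88 in limma).

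Under DMSO the other CCND1 probe sets showed larger differences than the brightest one. From the brightest to the dimmest of the 4, with means of 13.09 to 11.33, APP_DMSO differed from WT_DMSO by -0.1, -0.19, -0.44 and -0.79. The adjusted p over all probe sets in limma was 0.068 for the second, 0.00033 for the third and 2.3e-05 for the dimmest, in a comparison where 8.13% of probe sets were called. On the dimmest set the arrays were at 11.69, 11.83 and 11.96 in WT_DMSO and at 10.98, 11.11 and 11.0 in APP_DMSO. In APP_AG494 against WT_AG494 all 4 sets were called lower, by 0.2 to 0.54 on the log2 scale, where 7.76% of probe sets were called. Under NOSCA 2 of the 4 were, with 6.08% called over all. The brightest CCND1 set, like those of CDK4 and CDK6, lies above 12.23, the 95th percentile of gene means, and whether signal near the top of the scale made its differences smaller was not tested.

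CCND1 under PALBO was at 13.35, 13.22 and 13.25, above all WT_DMSO arrays, a difference of 0.12 (SE 0.06, adjusted p = 0.26 in limma). None of its 4 sets was called there, at 0.05 to 0.12. Under AG494 3 of the 4 sets had all WT arrays below all WT_DMSO arrays, and the dimmest was the 1 called. It was at 11.19, 11.46 and 11.15 in WT_AG494, below all 3 WT_DMSO arrays, and differed by -0.56 (adjusted p = 0.022 in limma), where 0.167% of probe sets were called. PALBO against AG494 had 2 of the 4 called higher, the third by 0.29 (adjusted p = 0.028 in limma) and the dimmest by 0.64 (adjusted p = 0.0014), where 2.67% of probe sets were called. The brightest set was at 0.17 there (adjusted p = 0.13 over genes, or 0.045 with the replicate block). The dimmest was also higher under PALBO than under NOSCA by 0.39 (adjusted p = 0.043 in limma; 2.34% called).

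The other D cyclins did not pass in any contrast. CCND3 was at 7.88, 7.97 and 8.13 in WT_DMSO, at 8.14, 8.06 and 8.17 under PALBO and at 8.07, 8.11 and 8.37 in APP_DMSO. These overlapped, and the differences from WT_DMSO had intervals from -0.08 to 0.35 and from -0.02 to 0.41. CCND2 lay between 5.04 and 5.84, below 6.62 on 21 of 21 arrays, where a flat value says little. Its interval under PALBO ran from -0.56 to 0.3.

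**Figure D2:**
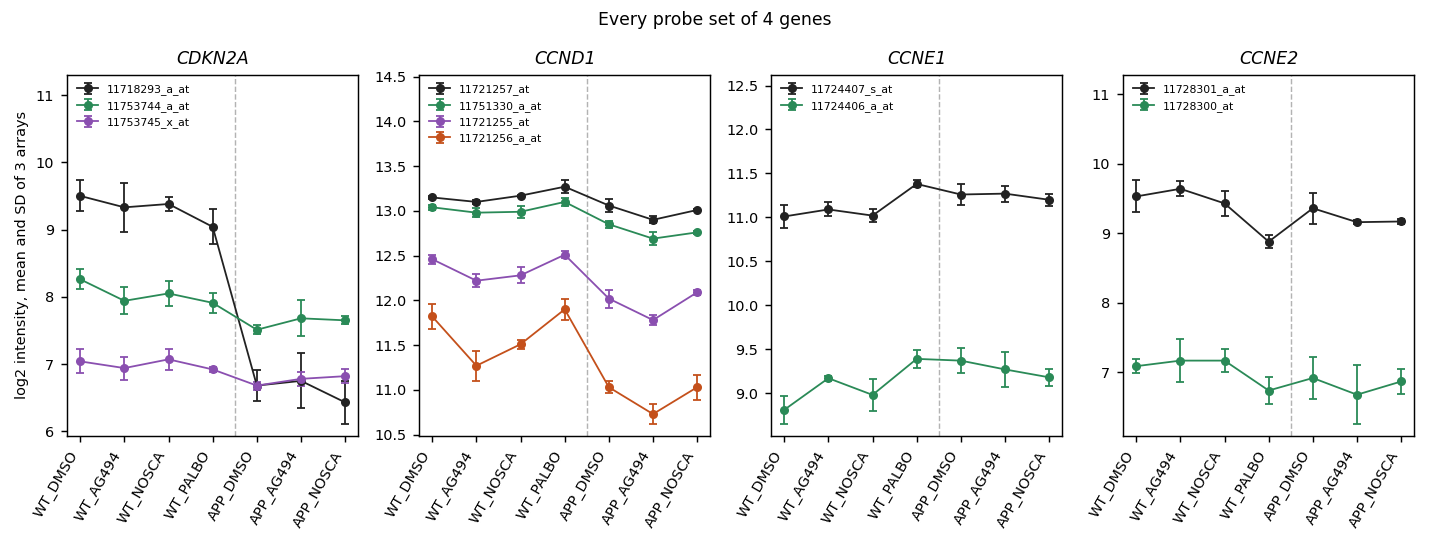
Mean and SD of 3 arrays (log2 intensity) in the 7 groups for every probe set of CDKN2A, CCND1, CCNE1 and CCNE2, named by their identifiers. The dashed line parts WT from APP groups. The step between WT and APP is deep on 1 CDKN2A set and shallow on the other two, while the step of CCND1 between WT_DMSO and APP_DMSO grows from the brightest set to the dimmest.

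The inhibitor gene CDKN2A was the member that differed most between the genotypes on the brightest probe sets. It was at 9.73, 9.51 and 9.28 in WT_DMSO and at 6.44, 6.71 and 6.89 in APP_DMSO. Under AG494 the WT arrays were at 9.59, 9.46 and 8.92 and the APP arrays at 6.43, 6.6 and 7.21. Under NOSCA they were at 9.44, 9.44 and 9.25 and at 6.06, 6.63 and 6.61. On this brightest set no APP array reached a WT array under any treatment, and 5 of the 9 APP arrays were below 6.62, where signal is dim. The log2 fold change of CDKN2A was -2.82 (SE 0.21, adjusted p = 3.5e-08 in limma) under DMSO, -2.58 (SE 0.21, adjusted p = 9.2e-08) under AG494 and -2.94 (SE 0.21, adjusted p = 2.6e-08) under NOSCA. The runs gave -3.29, -2.79 and -2.38 under DMSO, -3.16, -2.86 and -1.72 under AG494 and -3.38, -2.81 and -2.64 under NOSCA. In order of the means, WT_DMSO (9.5), WT_NOSCA (9.38), WT_AG494 (9.33) and WT_PALBO (9.04) came first, then APP_AG494 (6.75), APP_DMSO (6.68) and APP_NOSCA (6.43). Of the neighbours in this order, only WT_PALBO and APP_AG494 lay further apart than the spread of their arrays.

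CDKN2A was the only member called in APP_DMSO against WT_DMSO, 1 of 9, where 9.25% of all genes were called. It was also the only one under NOSCA, where 7.2% were. Under AG494 it was called with CCND1 and CCNE2, 3 of 9, against 9.02% of all genes. With the replicate block CDK6 and CCNE1 passed as well under DMSO (17.4% of all genes called) and CCND1 under NOSCA (14.8%). The comparisons under DMSO, AG494 and NOSCA share no arrays with each other. They do share the WT and APP lines, the estimate of the spread and the runs that pair the arrays. Beside these differences the log2 fold change of the fibroblast marker COL1A1 was -1.19 in APP_DMSO against WT_DMSO, that of the glial marker S100B -1.01 and that of the fibroblast marker DCN 1.55, all called in limma. Under AG494 COL1A1 differed by -0.92 and S100B by -0.77, both called, and DCN by 0.75 (adjusted p = 0.25, or 0.026 with the replicate block). Under NOSCA the values were -1.0, -1.2 and 1.28, all called, that of DCN lost without WT_NOSCA replicate 2 or 3 or APP_NOSCA replicate 1 or 2. The noradrenergic marker CHGA differed by 0.59, 0.56 and 0.6 under DMSO, AG494 and NOSCA, all called. DBH of the same list differed by -0.31, -0.14 and -0.22. It was called under DMSO and NOSCA, the latter call lost in 18 fits with an array left out. Under AG494 its adjusted p was 0.23, or 0.031 with the replicate block, in limma. The immune marker CD68 was called under AG494, at 0.45.

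The other probe sets of CDKN2A showed much smaller differences. The second was at 8.19, 8.15 and 8.44 in WT_DMSO and at 7.44, 7.58 and 7.5 in APP_DMSO, without overlap, a difference of -0.75 (adjusted p = 0.00081 in limma). The third, whose identifier marks it as possibly cross-hybridising, was at 7.11, 6.83 and 7.18 against 6.61, 6.73 and 6.69 (-0.36, adjusted p = 0.035). Under AG494 the second set differed by -0.26 (adjusted p = 0.3) and under NOSCA by -0.4 (adjusted p = 0.087), and neither passed. Its arrays overlapped under AG494, at 7.72, 8.11 and 8.01 in WT and 7.37, 7.86 and 7.81 in APP cells. The third set was at -0.16 under AG494 and -0.25 under NOSCA. It was called in neither, and its WT and APP arrays overlapped in both. Which of the p16 and ARF transcripts each set reads was not analysed here, and the cause of the disagreement was not tested.

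Genes listed around CDKN2A on chromosome 9 were not called between the genotypes in the fit without a block. Of these MTAP, which ends at 21941115, and CDKN2B, which starts at 22002903, lie closest to it. The outermost, KLHL9 and ELAVL2, start at 21329665 and 23690104. KLHL9, IFNE, MTAP, CDKN2B, DMRTA1 and ELAVL2 did not pass, 6 of 6, in any of the 3 genotype comparisons. Under DMSO, AG494 and NOSCA these called 9.25%, 9.02% and 7.2% of all genes, so that no call among 6 says little. IFNE, at 5.11 in APP_DMSO and 5.14 in WT_DMSO, and DMRTA1, at 4.68 and 4.81, lay below 6.62, where a flat value says little. CDKN2B lay near that bound, at 6.53 and 6.65. In APP_DMSO against WT_DMSO MTAP, a purine salvage enzyme gene, was at -0.02 (95% interval -0.25 to 0.21) and the INK4 gene CDKN2B, which encodes p15, at -0.12 (-0.38 to 0.13). IFNE was at -0.03, DMRTA1 at -0.13, KLHL9 at 0.17 (adjusted p = 0.12) and the neuronal RNA-binding gene ELAVL2 at 0.36 (adjusted p = 0.1), and both of these were called higher with the replicate block (adjusted p = 0.032 and 0.015). CDKN2B was at -0.32 under NOSCA (adjusted p = 0.14), and was called lower with the replicate block (adjusted p = 0.037), with -0.16, -0.35 and -0.44 in the runs. Within a genotype ELAVL2 fell under PALBO by 0.62 (adjusted p = 0.0058 in limma) and in APP_AG494 against APP_DMSO by 0.77 (adjusted p = 0.0017), and was lower under PALBO than under NOSCA (-0.71, adjusted p = 0.0042). KLHL9 rose under PALBO by 0.23 (adjusted p = 0.041 in limma), a call lost without any of the 6 compared arrays. The probe set of the antisense gene CDKN2A-AS1 lay between 5.47 and 5.54 in the group means, also below 6.62.

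Within WT cells CDKN2A did not pass under PALBO. The arrays were at 9.24, 9.14 and 8.75, all below the WT_DMSO arrays, a difference of -0.47 (95% interval -0.91 to -0.02, adjusted p = 0.24, or 0.17 with the replicate block, in limma). All 3 runs were negative, at -0.5, -0.37 and -0.53. For AG494 and NOSCA in WT cells the values were -0.18 and -0.13, and for both in APP cells 0.07 and -0.25, with adjusted p of 0.94 or more in limma. The genotype difference of CDKN2A was not shown to change with either compound (interactions 0.24 and -0.12, adjusted p = 0.95 and 1.0).

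Transcriptional regulators known to act on CDKN2A and the D cyclins were lower in APP cells in several cases. Of 18 measured of 21 listed, 8 fell and 1 rose in APP_DMSO, where 9.25% of all genes were called, with a median of -0.13 against 0.02 over all genes. The list was chosen with earlier results of these data known, so that its share beside that of all genes is no test. ID1, which blocks ETS and E proteins, fell by 2.83 and TBX3, a T-box repressor of CDKN2A, by 1.84. MYC fell by 1.48 and ETS1, an activator of CDKN2A, by 1.22, while MYCN, the neuroblastoma oncogene, rose by 0.58 (adjusted p = 0.03 in limma, lost without WT_DMSO replicate 1 or 2 or APP_DMSO replicate 1 or 3). Under AG494 8 were lower and 1 higher in APP cells (9.02% of all genes called) and under NOSCA 6 and 1 (7.2%). With the replicate block 8 were lower and 2 higher under NOSCA, where 14.8% of all genes were called. In WT cells 4 were lower under PALBO (6.98%), GLI2 (-0.79), ID2 (-0.65), ETS1 (-0.62) and FOXM1 (-0.6), and 1 was higher, the histone demethylase gene KDM6B (0.28, lost without any of the 6 compared arrays but WT_DMSO replicate 3).

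By the likeness of their 7 group means, the genes nearest to CDKN2A were the cortical neuron factor CUX2 (Pearson r = 0.9997, span 4.36), the amino acid transporter SLC6A15 (r = 0.9973, span 1.84) and ARAP3 (r = 0.9969, span 0.34). With 7 means that fall into 2 genotypes such values are common, and 557 genes had an r above 0.9 with CDKN2A.

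RB1, the target of the kinases, did not pass on its brightest probe set in any contrast. It was at 11.19, 11.12 and 10.79 in WT_DMSO, at 10.89, 10.9 and 10.85 under PALBO and at 11.1, 11.09 and 10.76 in APP_DMSO, all overlapping. The difference under PALBO had an interval from -0.44 to 0.13 (adjusted p = 0.66 in limma). The third array was the lowest of its group in all 7 groups. A second set, with a mean of 8.7, was at 8.54, 8.6 and 8.5 under PALBO against 8.95, 8.83 and 8.78 in WT_DMSO, without overlap. This set fell by 0.3 (adjusted p = 0.014 in limma; 5.95% of probe sets called). In APP_AG494 it was at 8.6, 8.59 and 8.53 against 8.93, 8.82 and 9.04 in APP_DMSO and fell by 0.36 (adjusted p = 0.0064 in limma; 3.82% called).

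The E cyclins, which drive CDK2 after RB is inactivated, moved in opposite directions under PALBO. They were the 2 of 9 members called against WT_DMSO, where 6.98% of all genes were. CCNE1 was at 11.36, 11.42 and 11.36 under PALBO, above the 11.04, 10.86 and 11.13 of WT_DMSO, the 11.05, 11.04 and 11.18 of WT_AG494 and the 10.96, 11.01 and 11.09 of WT_NOSCA. It rose by 0.37 (SE 0.08, adjusted p = 0.0069 in limma), with 0.33, 0.56 and 0.23 in the runs. CCNE2 was at 8.99, 8.84 and 8.82 under PALBO, below the 9.46, 9.33 and 9.79 of WT_DMSO and every other array of the series. It fell by 0.65 (SE 0.12, adjusted p = 0.0017 in limma), with -0.47, -0.5 and -0.97 in the runs. With the replicate block both stayed called (adjusted p = 0.0005 and 0.00043), where 15.1% of genes were. On the same arrays COL1A1 was at -0.88 and S100B at 0.95 against WT_DMSO, both called in limma, and DCN at 0.49 (adjusted p = 0.55). Of the noradrenergic markers CHGA rose by 0.49 and ISL1 by 0.43, both called, and 6 did not pass.

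Against the other compounds, whose doses the labels leave out, both E cyclins had the same signs. Against NOSCA CCNE1 was higher by 0.36 (adjusted p = 0.015 in limma) and CCNE2 lower by 0.55 (adjusted p = 0.011), 2 of 9 members where 3.23% of genes were called. Without WT_NOSCA replicate 1 neither passed; CCNE1 was also lost without WT_NOSCA replicate 2 or WT_PALBO replicate 2, and CCNE2 without WT_NOSCA replicate 3 or WT_PALBO replicate 3. Against AG494 CCNE2 fell by 0.76 (adjusted p = 0.00097 in limma), the 1 member called, where 3.25% of genes were. CCNE1 was at 0.29 there (adjusted p = 0.057, or 0.0057 with the replicate block, where 8.7% of genes were called), and CCND1 also passed with that block. These comparisons and the one with WT_DMSO share the WT_PALBO arrays. The second CCNE1 set was at 9.37, 9.51 and 9.31 under PALBO against 8.82, 8.64 and 8.97 in WT_DMSO and rose by 0.58 (adjusted p = 0.0033 in limma). The second CCNE2 set was at 6.95, 6.58 and 6.69 against 7.2, 7.01 and 7.05, without overlap, and its -0.34 did not pass (adjusted p = 0.38).

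Between the genotypes fewer differences of the E cyclins passed. CCNE1 was at 11.27, 11.13 and 11.37 in APP_DMSO, the lowest just above the highest WT_DMSO array, both 11.13 after rounding. Its log2 fold change was 0.25 (SE 0.08, adjusted p = 0.066, or 0.0092 with the replicate block, in limma), and 0.57 on the second set (adjusted p = 0.0027). CCNE2 was at 9.31, 9.17 and 9.6 in APP_DMSO, overlapping with WT_DMSO, at -0.16 (adjusted p = 0.5). Under AG494 it was at 9.2, 9.13 and 9.16 in APP against 9.75, 9.65 and 9.53 in WT cells and fell by 0.48 (SE 0.12, adjusted p = 0.012 in limma, or 0.069 without WT_AG494 replicate 1). Under NOSCA the value was -0.26 (adjusted p = 0.23). The AG494 response of CCNE2 was not shown to differ between the genotypes (interaction -0.32, 95% interval -0.67 to 0.03, adjusted p = 0.73 in limma).

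In order of the means, CCNE2 ran from WT_AG494 (9.64), WT_DMSO (9.53), WT_NOSCA (9.43) and APP_DMSO (9.36) to APP_NOSCA (9.17), APP_AG494 (9.16) and WT_PALBO (8.88). Only the last step, from APP_AG494 to WT_PALBO, separated all arrays of neighbours in this order. The genes with the most similar group means were PURB (Pearson r = 0.9878), the Wnt receptor gene FZD1 (r = 0.9819) and GXYLT1 (r = 0.9746), over 7 means, and 98 genes exceeded 0.9.

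**Figure D3:**
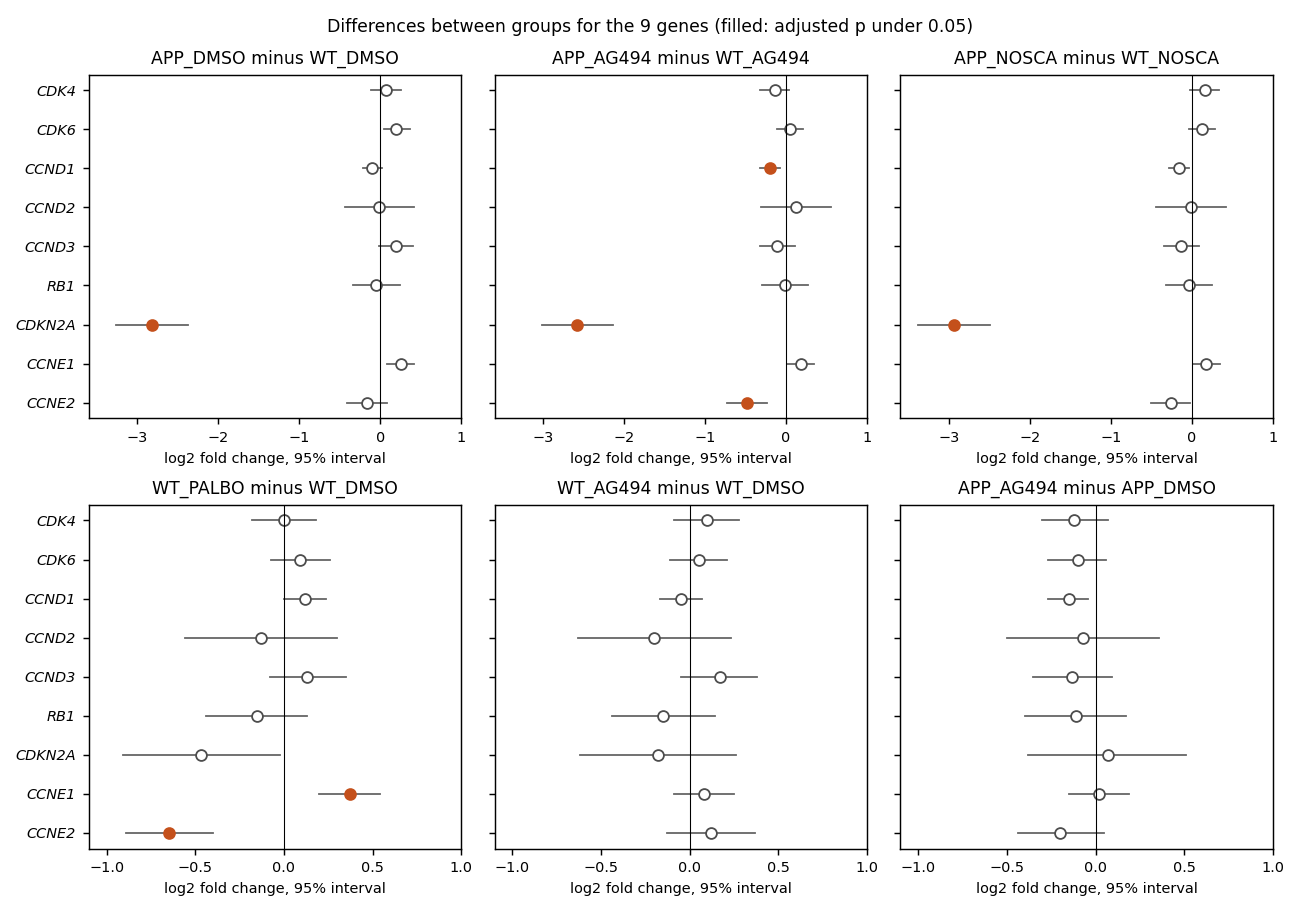
Log2 fold change with its 95% interval for the 9 genes in 6 comparisons. The upper panels, genotype within a treatment, have a wider axis than the lower ones, a compound within a genotype; filled points passed the adjusted threshold. CDKN2A stands apart in the upper row, and CCNE1 and CCNE2 part to either side of 0 under PALBO.

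No member passed on its brightest probe set under AG494 or NOSCA within a genotype. Single dimmer sets of CCND1 (WT cells) and RB1 (APP cells) were called lower under AG494, as given above. In WT cells 0 of 9 were called under AG494 (0.254% of all genes) and 0 under NOSCA (0.0165%), and in APP cells 0 under AG494 (4.75%) and 0 under NOSCA (0%) in limma. Over all genes 1474, 1253, 2873 and 959 had an unadjusted p under 0.05 in these. The interactions of genotype with AG494 (0.0386% of all genes) and with NOSCA (0%) also held 0 of 9 members, with 1365 and 895 genes at an unadjusted p under 0.05.

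Of 35 other regulators of the same step, 9 fell and 1 rose under PALBO, where 6.98% of all genes were called, with a median of -0.08 against 0.0 over all genes. With the replicate block 10 fell and 3 rose, where 15.1% of genes were called. This list was likewise chosen with earlier results of these data known, and its share is no test. E2F7, an E2F repressor, was at 8.4, 8.46 and 8.29 against 9.56, 9.39 and 9.45 in WT_DMSO, without overlap, and fell by 1.09 (SE 0.08, adjusted p = 3.6e-07 in limma). E2F8 fell by 0.84 and RBL1, the RB relative p107, by 0.8. RBL1 was at 8.1, 8.05 and 8.0 against 8.84, 8.69 and 9.01 in WT_DMSO. CDK2, the partner of the E cyclins, fell by 0.48 (adjusted p = 0.036, lost without WT_DMSO replicate 1 or 2 or WT_PALBO replicate 1 or 3). The 1 that rose in the fit without a block was FBXO31 (0.31), a ubiquitin ligase part that targets cyclin D1, lost without WT_DMSO or WT_PALBO replicate 2 or 3. The other RB relative RBL2 (0.02), the activator E2F1 (-0.03) and the INK4 genes CDKN2B (0.01) and CDKN2D (-0.08) did not pass.

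Of the CIP/KIP inhibitors, which bind cyclin-CDK2 complexes, CDKN1A and CDKN1C fell under PALBO. CDKN1A, which encodes p21, was at 11.94, 12.02 and 12.1 against 12.95, 12.97 and 12.25 in WT_DMSO and fell by 0.71 (adjusted p = 0.0035 in limma). In the runs the difference was -1.02, -0.96 and -0.16, and the third WT_DMSO array was the low one of its group. CDKN1C, which encodes p57, was at 9.1, 8.79 and 8.56 against a wide 11.53, 10.44 and 9.44 and fell by 1.66 (SE 0.38, adjusted p = 0.011 in limma). Without WT_DMSO replicate 1 CDKN1C was at -1.13 (adjusted p = 0.065), and its call was also lost without WT_PALBO replicate 3. CDKN1B, which encodes p27, had -0.31 (adjusted p = 0.16, or 0.027 with the replicate block).

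In APP_DMSO 3 of the 35 were lower and 1 higher, a share near the 9.25% of all genes called there, and with the replicate block 4 were lower and 3 higher, where 17.4% were called. E2F1 was at 10.32, 10.56 and 10.35, above the 9.61, 9.91 and 10.09 of WT_DMSO, and rose by 0.54 (SE 0.16, adjusted p = 0.038 in limma). CDKN1C was at 9.24, 9.29 and 8.84 and fell by 1.35 (adjusted p = 0.032 in limma), E2F7 by 0.46 and TFDP1, the E2F partner DP1, by 0.27. Of these, E2F7 was called with any array left out, whereas E2F1 and CDKN1C were lost without any of the 6 compared arrays but WT_DMSO replicate 3 (adjusted p up to 0.19), and TFDP1 without those but APP_DMSO replicate 2. Without WT_DMSO replicate 1 CDKN1C was at -0.82. The comparisons of APP_DMSO and of WT_PALBO share the WT_DMSO arrays. In APP_AG494 against APP_DMSO 3 of the 35 were lower and 1 higher (4.75% of all genes called), or 8 and 1 with the replicate block (11.8%). Against WT_AG494 6 were lower and 1 higher (9.02%). There RBL1 was lower by 0.52 and E2F8 by 0.42, calls lost in 3 and 4 fits with an array left out. CDKN1A was higher by 0.47, lost in 13 such fits.

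E2F target genes, which encode replication proteins and show the output of the module, fell under PALBO in 19 of 38 measured cases of 40 listed, and none rose, where 6.98% of all genes were called. Their median was -0.32 against 0.0 over all genes, and 36 of the 38 were negative. These genes were also listed with earlier results of these data known, so that their share is no test. The licensing factor CDT1 was at 9.7, 9.81 and 9.59 against 10.24, 10.35 and 10.73 in WT_DMSO, without overlap, and fell by 0.74. PRIM1, a primase subunit, fell by 0.64, the replicative helicase part GINS2 by 0.6 and the repair gene RAD54L by 0.57. CCNE2 and these genes were low on the same arrays, whereas CCNE1, an E2F target by textbook knowledge too, was high on them.

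E2F targets also fell in APP cells under AG494, 17 of 38 against APP_DMSO, where 4.75% of all genes were called, with none higher and a median of -0.31. With the replicate block 31 were lower, where 11.8% of genes were called. Without APP_DMSO replicate 3 the count was 8, and without APP_DMSO replicate 2 or any APP_AG494 array it also fell by more than 1.5 times. PRIM1 was at 10.14, 10.04 and 10.17 against 10.55, 10.54 and 10.79 in APP_DMSO and fell by 0.51 (adjusted p = 0.0077 in limma, or 0.055 without APP_DMSO replicate 3). POLA1, the catalytic subunit of DNA polymerase alpha, fell by 0.44, DSCC1 by 0.43 and the nuclease gene EXO1 by 0.41. On the same arrays the immune marker CD68 rose by 0.52 (adjusted p = 0.0024 in limma), and the other 4 of its list did not pass. Against WT_AG494, 18 were lower, where 9.02% of all genes were called (31 with the replicate block, where 16.9% of genes were called), or 9 without WT_AG494 replicate 1; without WT_AG494 replicate 2 or APP_AG494 replicate 3 the count also fell by more than 1.5 times.

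In WT cells AG494 called 0 of the 38 (median 0.01) and NOSCA 0 (-0.01), where 0.254% and 0.0165% of all genes were called. In APP cells NOSCA called 0, where 0% of all genes were, at a median of -0.14 with all 38 negative. With so few genes called, these counts of 0 say little. The NOSCA and AG494 comparisons in APP cells share the APP_DMSO arrays. APP_DMSO against WT_DMSO called 0 (0.01), or 1 higher with the replicate block (9.25% and 17.4% of all genes). APP_NOSCA against WT_NOSCA called 0 (-0.12), or 7 lower with the replicate block (7.2% and 14.8%). The difference of the AG494 response between the genotypes had a median of -0.3 over the list, with 0 genes called in limma and 5 with the replicate block, where 1.26% of all genes were called. Without the block 0.0386% of all genes were called in that test, and 0 of 9 members of the module itself.

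**Figure D4:**
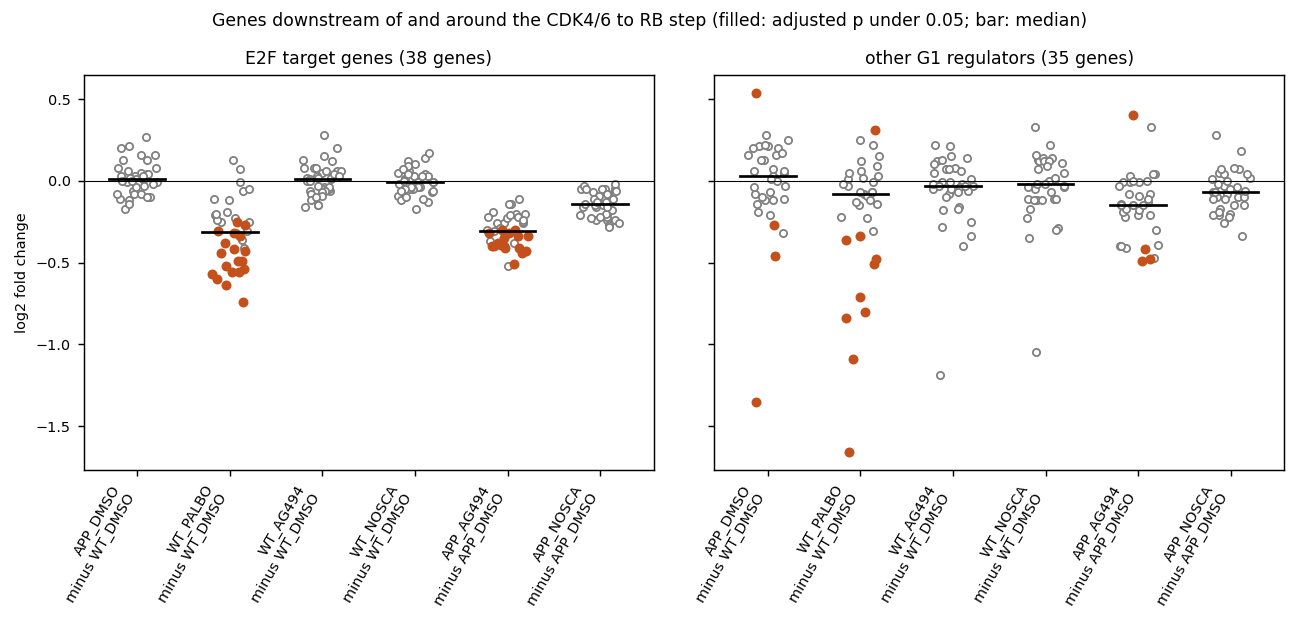
Log2 fold changes of 38 E2F target genes and 35 other regulators of the G1 phase in 6 comparisons; each point is a gene, filled where it passed the adjusted threshold, and the bar is the median. E2F targets lie mostly below 0 under PALBO in WT and under AG494 in APP cells, with medians of -0.32 and -0.31. Under NOSCA in APP cells all 38 are also below 0, with a median of -0.14 and none called. They lie around 0 in APP_DMSO against WT_DMSO.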

How the data were processed

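Total RNA of 21 cultures was amplified and hybridised to PrimeView arrays. The deposited values are log2 intensities, made by the authors with RMA (affy) according to what is named per the submitters' processing notes; versions are not given in the sources used here. They were used as deposited. Of 49372 probe sets, 79 controls, 1832 with several symbols and 2473 not listed in the platform annotation were left out. Of the other 44988, 44961 matched a RefSeq gene, and 11734 of 18132 genes had several probe sets. Dim genes were kept. Arrays carry no count, so that their number limits the precision.

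One limma 3.58.1 model in R 4.3.3 (lmFit, eBayes; 14 residual and 4.27 prior degrees of freedom) held 7 group coefficients and 12 contrasts. Two-sided p-values received Benjamini-Hochberg adjustment over all genes of a contrast; probe sets were fitted separately over all 44988. The code was tested on simulated data. The series describes independent experiments, and nothing says more on how replicates were made. Deviations from group means correlated at 0.226 to 0.685 between arrays of the same run of title numbers (63 pairs), and the closest partner lay in the same run for 21 of 21 arrays, so that the runs pair the arrays. Blocked values of genes stand beside a printed result where they change its call or move a count by over 1.5 times; probe sets were fitted without the block.

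The members and the lists were chosen with earlier results of these data known. Named beside the members are up to 4 called genes a direction of a list with the largest log2 fold change, a fixed set of CDK inhibitors and RB relatives, all neighbours of CDKN2A, and the 3 genes most like a member whose means span at least 0.5. Single probe sets were picked for description after their values were seen. Alternatives were the replicate block, the mean of probe sets, quantile normalisation again, centring on array medians, omission of the dimmest 33.3%, a trended robust prior, only the groups compared, and each array left out.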

Additional observations from a re-analysis of the deposited data

Results flagged for a closer look

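CCND3, a D cyclin, had differences of opposite sign between AG494 and DMSO in the 2 genotypes, and neither passed in limma (0.17, adjusted p = 0.78 in WT and -0.13, adjusted p = 0.63 in APP cells). The values were 0.27, 0.11 and 0.13 in the 3 runs of WT cells and -0.02, -0.15 and -0.22 in those of APP cells. The difference of the responses was -0.30 (SE 0.15) and did not pass (adjusted p = 0.68, or 0.29 with the replicate block, in limma). It was the 1 such case among 18 pairs of a gene and a compound that were looked at, and groups of 3 arrays were not searched for outlying arrays.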

How the results depend on the processing

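Counts of called members moved as follows. In APP_DMSO against WT_DMSO 1 member became 3 with the replicate block, 3 with the mean of probe sets, and 2 each without the dimmest 33.3% and with a trended robust prior, and 1 to 3 with an array left out, 3 being without WT_DMSO replicate 3. In APP_NOSCA against WT_NOSCA 1 became 2 with the replicate block, the mean of probe sets or the trended prior. In APP_AG494 against WT_AG494, with each array left out, 1 to 3 were called, 1 without WT_AG494 replicate 1. Under PALBO 2 became 1, CCNE2, with only the groups compared (CCNE1 adjusted p = 0.079), and stayed 2 with any array left out. PALBO against AG494 gave 3 instead of 1 with the replicate block or the trended prior, 2 with the mean of probe sets, with centring and without the dimmest 33.3%, and 1 to 2 with an array left out. PALBO against NOSCA gave 1 instead of 2 with only the groups compared and 0 to 2 with an array left out, 0 without WT_NOSCA replicate 1. In APP_AG494 against APP_DMSO 0 became 1, CCND1, with the mean of probe sets or the trended prior. CCND1 in APP_AG494 against WT_AG494 lost its call with centring (adjusted p = 0.07) and with only the groups compared (0.19). At the settings that keep all arrays no called value of a member changed sign, while 24 of 744 values did, 16 of them with the mean of probe sets, and none of these was larger than 0.25. Over all genes in APP_DMSO against WT_DMSO 942 were higher and 735 lower, but a second quantile normalisation gave 773 and 867, and centring on array medians 669 and 962; with the replicate block 3151 instead of 1677 were called.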
